A study of Mus musculus with 8 samples.

Results

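The values reported here are those of 10 mature miRNAs that lie inside genes of small nucleolar RNAs (snoRNAs) and small Cajal body RNAs (scaRNAs), in small RNA libraries of mouse NIH3T3 fibroblasts. They are mmu-miR-3535, mmu-miR-5121, mmu-miR-1291, mmu-miR-1843a-5p, mmu-miR-1843a-3p, mmu-miR-1843b-5p, mmu-miR-664-3p, mmu-miR-664-5p, mmu-miR-3084-3p and mmu-miR-3084-5p. These 10 were chosen by their place in a snoRNA or scaRNA gene after the counts of U6 against CAG-EGFP libraries without mismatch were known, in which miR-3535 stood apart, so that comparison is given below as a description, and no p-value of a member is given for it. They are 10 of 1966 mature names counted in the series, of which 1019 had at least 1 count. By the GENCODE annotation, 24 of the 1966 names overlap a snoRNA or scaRNA gene on the same strand.

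The RNA came from NIH3T3 cells, an immortalised line of mouse embryonic fibroblasts, and was prepared as total RNA 48 h after transient transfection with 1 of 4 plasmids that express a long double-stranded RNA hairpin. CAG-EGFP-Lin28IR and CAG-EGFP-MosIR transcribe a Lin28 or Mos inverted repeat behind an EGFP reporter from the CAG promoter, a strong RNA polymerase II promoter. U6-Lin28aIR and U6-MosIR transcribe a hairpin of the same origin from the RNA polymerase III promoter U6, without EGFP, with different hairpin ends and a different length, and these differences cannot be told apart from the promoter. Each plasmid had 2 libraries from separately transfected wells, 8 in all. No library of untransfected cells was analysed here, and all 4 groups carry a plasmid and a hairpin. The sample labels give 250 ng of plasmid per well, the amount in the study's general transfection methods. Its methods for RNA sequencing give a larger amount in larger wells for these 4 plasmids. Why the labels differ from that section is not known.

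The perfectly mapped reads numbered 12898619 to 16228597 per library, and 73.1% to 80.7% of them in the CAG-EGFP libraries and 70.3% to 74.9% in the U6 libraries were outside 18–30 nt. Counts on miRNAs took 10.9% to 16.5% of the mapped reads with CAG-EGFP plasmids and 18.7% to 22.1% with U6 plasmids. RPM below are counts without mismatch per 1000000 perfectly mapped reads of all lengths, and 3 counts correspond to 0.185 to 0.233 RPM. All 8 fibroblast miRNAs that were looked up had a mean of at least 48.4 RPM, and their summed RPM was 39363 to 61422 with CAG-EGFP plasmids and 75719 to 90070 with U6 plasmids. Of 5 embryonic stem cell miRNAs, 4 had no count in any library. Of 2 neuron miRNAs, 1 had a mean of 159 RPM, above the lowest fibroblast mean, and the other 0.528 RPM. None of the 4 blood, 3 muscle, 1 liver and 4 epithelium miRNAs had a mean of at least 10 RPM. The part of the shift in miRNA share between the promoters in the results below was not tested. The RNA was taken from whole wells, so a lower level in every cell and a loss from some cells cannot be told apart.

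snoRNAs and scaRNAs are stable nuclear RNAs that guide the chemical modification of other RNAs. Box C/D snoRNAs direct the methylation of ribosomal RNA through short conserved motifs called box C, near the 5′ end, and box D, near the 3′ end. Box H/ACA RNAs direct pseudouridylation, and fold into a pair of hairpins, the last of which is followed by an ACA close to the 3′ end. scaRNAs act on spliceosomal RNAs in Cajal bodies. In mammals most are cut out of introns of protein-coding genes and trimmed from both ends. Shorter fragments of them are found in small RNA libraries, and some in human cells are cut by Dicer and bound by Argonaute proteins like miRNAs, which is how several came to be listed as miRNAs.

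The mature sequences of the members are shown first. By their GENCODE place the members separate into RNAs at a snoRNA start and RNAs beyond the midpoint of the gene. Folding was not computed here, so an RNA at a snoRNA start may also be part of a hairpin stem. The sequences are those of RefSeq for GRCm38, 5′ to 3′, with the seed, bases 2 to 8, in capitals.
mmu-miR-3535: uGGAUAUGaugacugauuaccugaga
mmu-miR-5121: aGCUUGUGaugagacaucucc
mmu-miR-1291: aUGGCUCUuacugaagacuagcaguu
mmu-miR-1843a-5p: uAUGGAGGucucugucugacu
mmu-miR-1843a-3p: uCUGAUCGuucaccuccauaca
mmu-miR-1843b-5p: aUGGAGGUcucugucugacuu
mmu-miR-664-5p: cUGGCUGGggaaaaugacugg
mmu-miR-664-3p: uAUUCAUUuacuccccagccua
mmu-miR-3084-5p: gUUGAAGGuuaauuagcagagu
mmu-miR-3084-3p: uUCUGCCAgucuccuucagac
No seed was shared between members or with another listed name that has a RefSeq sequence. The 5p arms of miR-1843a and miR-1843b hold nearly the same bases but begin 1 base apart, which gives them different seeds.

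The 3 abundant members coincide with the beginning of a snoRNA. Their annotated host RNAs are printed below from GRCm38 at the GENCODE coordinates, with the mature miRNA in capitals. Snora36b, with miR-664-5p in capitals, is shown beside them as an example of the other members.
Gm24148, chr1:86352008-86352087, minus strand: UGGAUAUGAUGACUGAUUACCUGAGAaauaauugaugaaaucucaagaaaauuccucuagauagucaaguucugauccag
Snord33, chr7:45126864-45126947, minus strand: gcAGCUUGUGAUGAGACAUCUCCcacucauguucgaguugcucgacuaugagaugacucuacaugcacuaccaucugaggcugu
Snora34, chr15:98519716-98519853, minus strand: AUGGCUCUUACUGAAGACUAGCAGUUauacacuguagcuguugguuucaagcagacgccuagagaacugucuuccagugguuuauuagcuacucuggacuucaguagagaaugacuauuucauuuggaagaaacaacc
Snora36b, chr1:185242907-185243038, plus strand: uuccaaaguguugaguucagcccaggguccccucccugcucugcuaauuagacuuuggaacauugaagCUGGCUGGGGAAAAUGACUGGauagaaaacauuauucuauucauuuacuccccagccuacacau

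miR-3535 spans bases 1 to 26 of the 80 bases of Gm24148, an intron-hosted snoRNA of Ncl, the gene of the nucleolar protein nucleolin. It overlaps in part an annotated exon of an Ncl transcript. miR-5121 spans bases 3 to 23 of the 84 bases of Snord33, in Rpl13a, the gene of a ribosomal protein of the large subunit. It lies inside an annotated exon of an Rpl13a transcript. The RefSeq model of Snord33 begins at the first base of miR-5121. miR-1291 spans bases 1 to 26 of the 138 bases of Snora34, a box H/ACA snoRNA in an intron of Kansl2, a gene for a subunit of a histone acetyltransferase complex. The RefSeq model of Snora34 begins later and overlaps miR-1291 by 7 bases, so the place of miR-1291 at the gene start depends on the annotation used.

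The letters UGAUGA, the core of box C, were found inside miR-3535 and miR-5121 by a search of the printed strand. They began at base 7 of Gm24148, and again at base 33, and at base 9 of Snord33. The last CUGA, the letters of box D, began at base 72 of Gm24148 and base 75 of Snord33, leaving 5 and 6 bases after it. In Gm24148 CUGA also began at bases 13 and 21, inside miR-3535. UGAUGA was present in 12 of 1675 listed mature miRNAs with a RefSeq sequence (0.716%) and in the first 26 bases of 333 of 1557 annotated snoRNA and scaRNA genes (21.4%). Snora34 did not hold UGAUGA, and its last ACA was followed by 3 bases.

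The other 7 members begin beyond the midpoint of box H/ACA-type RNAs, and are named as the 5p or 3p arm of a hairpin. miR-664-5p and miR-664-3p span bases 69 to 89 and 106 to 127 of the 132 bases of Snora36b, in an intron of Rab3gap2, which encodes a subunit of a GTPase-activating protein. miR-1843a-5p and miR-1843a-3p span bases 78 to 98 and 116 to 137 of the 139 bases of Scarna3b in an intron of Dcaf5, a ubiquitin ligase adaptor gene. miR-1843b-5p spans bases 80 to 100 of the 140 bases of Scarna3a in an intron of Cop1, a ubiquitin ligase gene. miR-3084-5p and miR-3084-3p span bases 71 to 92 and 108 to 128 of the 132 bases of both Gm23658, in Cbwd1, and Snora19, in Eif3a, a gene of a translation initiation factor subunit. The counts at these 2 loci on chromosome 19 were the same in every library, because a read of either maps to both, and were counted once. In these 5 hosts the last ACA left 1 to 3 bases to the 3′ end of the gene. These places are those of GENCODE. The RefSeq model of Snora19 begins inside miR-3084-5p and overlaps it by 16 bases. In the RefSeq models of Scarna3a and Snora36b, miR-1843b-5p begins at base 56 and miR-664-5p at base 50, before the midpoint of the model. These places beyond the midpoint therefore also depend on the annotation used.

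**Figure D1:**
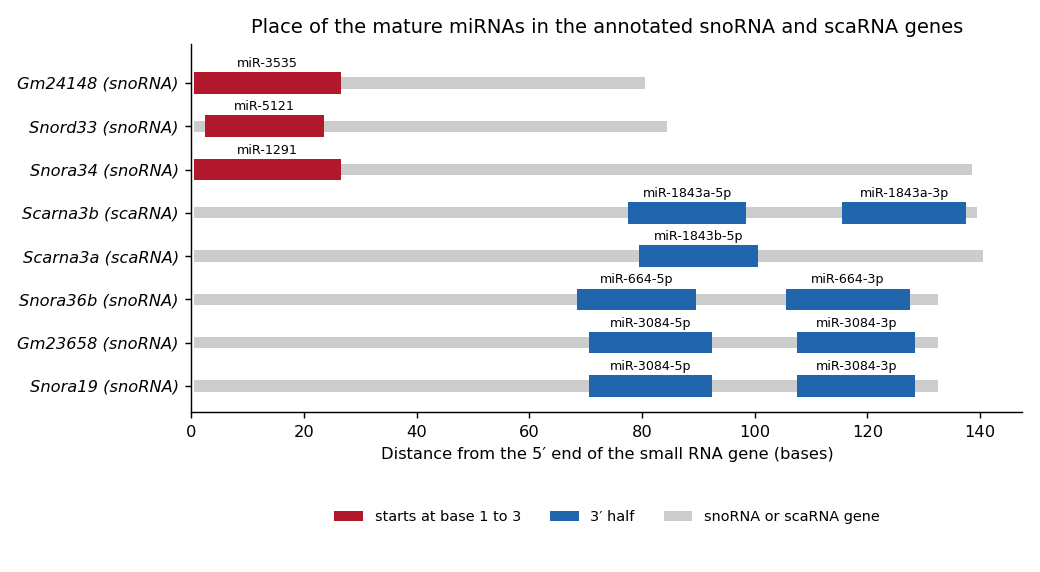
Position of the 10 mature miRNAs in their annotated genes, in bases from the 5′ end of the gene; grey bars are the genes and coloured bars the miRNAs. miR-3535, miR-5121 and miR-1291 begin at base 1 to 3, and the other 7 begin at base 69 or later.

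The level of the members divided in the same way as their GENCODE places. miR-3535 averaged 1742 RPM ± 516 (SD, n = 8 libraries), miR-5121 averaged 872 RPM ± 145 and miR-1291 averaged 246 RPM ± 51.5. By mean RPM they were 22nd, 39th and 63rd of the 1019 names with a count, and held 1.06%, 0.526% and 0.147% of all miRNA counts. miR-21a-5p, the most abundant miRNA, held 29.2%. The other 7 averaged 0.801 to 8.35 RPM and stood between the 195th and the 321st place. The 3 abundant members supplied 98.7% to 99.5% of the members' counts in each library. The order of these 3 was the same in all 8 libraries, although in U6-Lin28aIR replicate 1 miR-3535, at 935 RPM, was close to miR-5121, at 883 RPM.

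miR-3535 was found in the CAG-EGFP-Lin28IR libraries at 2501 and 2294 RPM, in the CAG-EGFP-MosIR libraries at 1674 and 1991 RPM, in the U6-Lin28aIR libraries at 935 and 1759 RPM and in the U6-MosIR libraries at 1492 and 1290 RPM. Both CAG-EGFP-Lin28IR libraries were highest, and U6-Lin28aIR replicate 1 was lowest. The U6 and CAG-EGFP libraries overlapped through U6-Lin28aIR replicate 2 alone, which was above CAG-EGFP-MosIR replicate 1. The mean of the CAG-EGFP libraries was 2115 RPM ± 361 and that of the U6 libraries 1369 RPM ± 347 (SD, n = 4 each), so that U6 stood at 0.647 of CAG-EGFP. By plasmid mean the order was CAG-EGFP-Lin28IR, CAG-EGFP-MosIR, U6-MosIR and U6-Lin28aIR. The libraries of the first 3 plasmids did not overlap with their neighbour in that order, and the last pair, at 1391 and 1347 RPM, did not differ beyond the spread of the U6-Lin28aIR libraries (SD 583, n = 2).

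miR-5121 was found at 853 and 905 RPM with CAG-EGFP-Lin28IR, at 1006 and 652 RPM with CAG-EGFP-MosIR, at 883 and 753 RPM with U6-Lin28aIR and at 804 and 1117 RPM with U6-MosIR. Its lowest value was a CAG-EGFP-MosIR library and its highest a U6-MosIR library, and the promoter groups overlapped almost completely. The means were 854 RPM ± 149 with CAG-EGFP and 889 RPM ± 161 with U6 plasmids (SD, n = 4 each), a ratio of 1.04. No neighbours in the order of the plasmid means differed beyond the spread of their libraries.

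miR-1291 was found at 308 and 183 RPM with CAG-EGFP-Lin28IR, at 217 and 208 RPM with CAG-EGFP-MosIR, at 302 and 226 RPM with U6-Lin28aIR and at 214 and 308 RPM with U6-MosIR. The lowest and the second highest library were the wells of a single plasmid, CAG-EGFP-Lin28IR, which differed 1.68 times, as much as the extremes of all 8 libraries. The means were 229 RPM ± 54.6 with CAG-EGFP and 263 RPM ± 49.7 with U6 plasmids (SD, n = 4 each), a ratio of 1.15.

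The 7 low members rest on few reads, from 94 counts for miR-1843a-3p to 977 counts for miR-1843a-5p over the 8 libraries together. miR-1843a-5p ranged from 6.03 to 8.69 RPM in the CAG-EGFP libraries and from 9.01 to 9.87 RPM in the U6 libraries, without overlap. miR-1843a-3p, the other arm of that hairpin, ranged from 0.285 to 0.679 RPM and from 1.05 to 1.26 RPM, also without overlap, on 4 to 19 counts per library. miR-3084-5p ranged from 0.879 to 1.20 RPM and from 1.39 to 1.63 RPM, on 14 to 25 counts per library. For the other 4, miR-1843b-5p, miR-664-5p, miR-664-3p and miR-3084-3p, the promoter groups overlapped, and ratios of the U6 mean to the CAG-EGFP mean were 1.14, 1.47, 1.64 and 1.20. In all, 3 of the 10 members had RPM values that did not overlap between the promoters, against 31.4% of the 360 miRNAs tested, among which the median ratio was 1.41. Since this contrast was known when the members were chosen, nothing is read from that count.

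**Figure D2:**
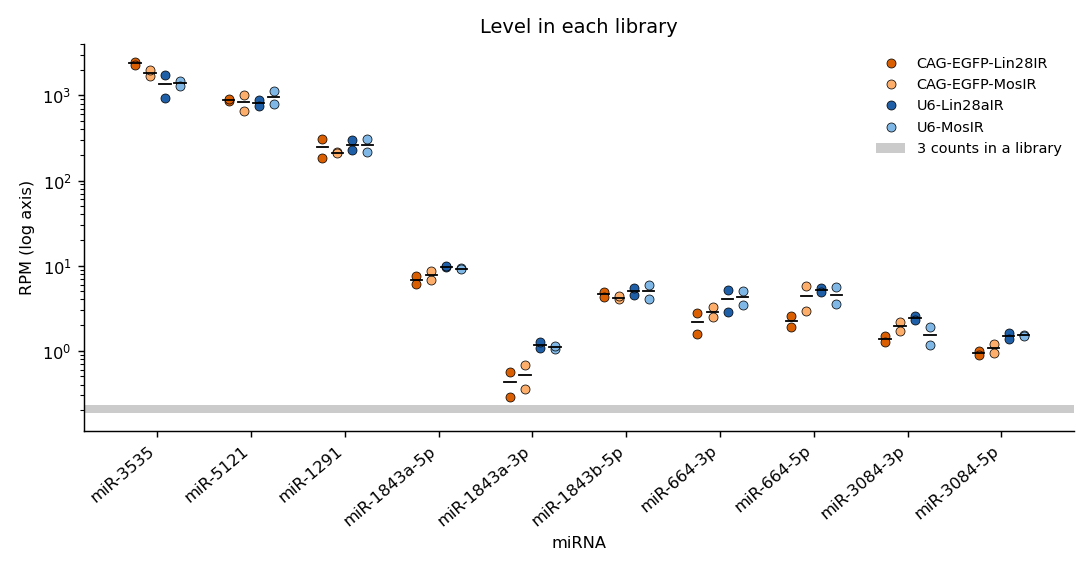
RPM of each of the 10 members (log axis) in each of the 8 libraries, coloured by plasmid; the short lines are the means of the 2 libraries of a plasmid and the grey band is the RPM of 3 counts. miR-3535, miR-5121 and miR-1291 lie between 183 and 2501 RPM and the others below 10 RPM.

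Relative to the miRNAs, miR-3535 had the lowest U6 against CAG-EGFP value of the members. With libraries scaled to the bulk of the miRNAs (edgeR with TMM, in which the median miRNA changed by -0.00227 on the log2 scale), the log2 fold change of U6 against CAG-EGFP was -1.13 (standard error 0.17) for miR-3535, -0.46 (0.17) for miR-5121 and -0.29 (0.16) for miR-1291. Among the 360 miRNAs tested these were the 3rd, 20th and 45th lowest. As shares of miRNA counts, the promoter groups did not overlap for miR-3535 and overlapped for miR-5121 and miR-1291. The 7 low members ranged from -0.30 for miR-1843b-5p to 0.74 for miR-1843a-3p, with 3 below and 4 above 0. As background, the fit over all miRNAs put 2 of 360 (0.556%) past its threshold of 0.05 on the adjusted p. The median log2 fold change was -0.18 over the 10 members and -0.00227 over all 360. This contrast was known when the members were chosen, so nothing is read from these counts.

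These values depended on the denominator. Relative to mapped reads the median miRNA rose by 0.50 on the log2 scale with U6 plasmids, and the fold changes on that scale were -0.61 for miR-3535, 0.0548 for miR-5121 and 0.20 for miR-1291, that is 1.12, 0.45 and 0.30 below that median. Relative to reads outside 18–30 nt, the class that reads from longer snoRNA fragments would fall into, the ratio of the U6 mean to the CAG-EGFP mean was 0.680 for miR-3535, 1.09 for miR-5121 and 1.19 for miR-1291. In that class the median ratio of the 360 miRNAs was 1.47. Relative to miRNA counts the 3 ratios were 0.433, 0.702 and 0.790, against a median of 0.970. Among the members the U6 mean was below the CAG-EGFP mean on all 4 denominators only for miR-3535. For miR-5121 it was above on mapped reads and reads outside 18–30 nt and below on the other 2, and for miR-1291 it was below on miRNA counts alone.

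**Figure D3:**
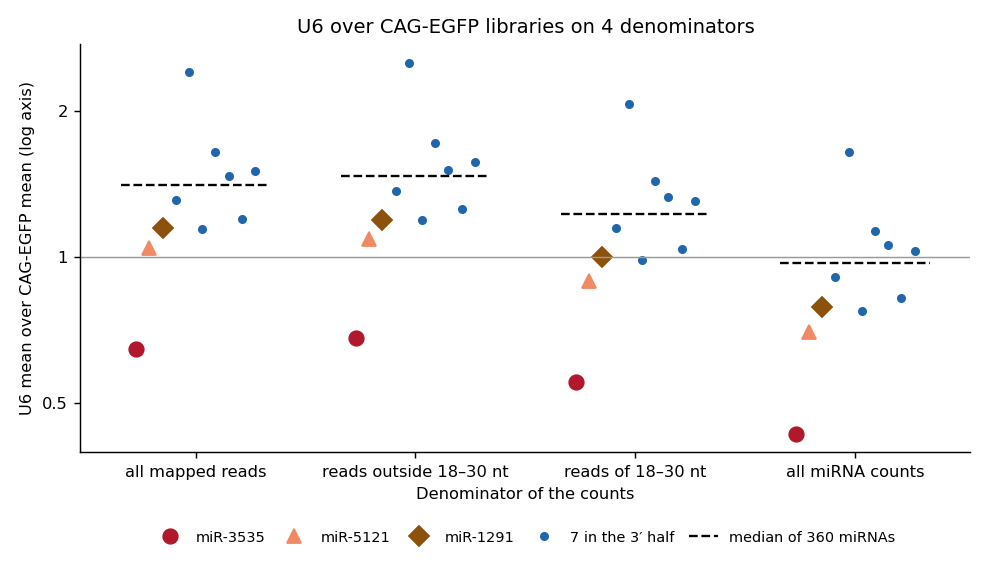
Mean of the 4 U6 libraries over the mean of the 4 CAG-EGFP libraries (log axis) for each member, with counts divided by all mapped reads, reads outside 18–30 nt, reads of 18–30 nt or all miRNA counts. The dashed lines are the medians of the 360 miRNAs tested, at 1.41, 1.47, 1.23 and 0.970, and miR-3535 lies below 1 in each column.

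Scaled as RPM but to the reads outside 18–30 nt, miR-3535 had 2763 ± 462 counts with CAG-EGFP and 1878 ± 513 with U6 plasmids (SD, n = 4 each), and the groups overlapped. On this scale miR-5121 had 1112 ± 171 and 1214 ± 207 counts, and miR-1291 had 301 ± 76.0 and 359 ± 65.7 counts, less than 1 SD apart. The values of 3 of the 10 members did not overlap between promoters on this scale, all of them among the low members, against 28.6% of the 360 miRNAs. Over all 8 libraries the highest miR-5121 value was 1.69 times the lowest on this scale, for miR-1291 1.84 times and for miR-3535 2.60 times.

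The members did not move as a block from library to library. Counts of miR-3535 per count of miR-5121 in the same library, a ratio that needs no library size, were 2.93 and 2.53 with CAG-EGFP-Lin28IR, 1.67 and 3.05 with CAG-EGFP-MosIR, 1.06 and 2.34 with U6-Lin28aIR and 1.86 and 1.15 with U6-MosIR. The ratio therefore varied over the libraries by 2.89 times, and from 1.06 to 2.34 between the wells of U6-Lin28aIR alone. Its promoter means were 2.55 ± 0.628 with CAG-EGFP and 1.60 ± 0.605 with U6 plasmids (SD, n = 4 each), and the groups overlapped. miR-3535 per miR-1291 ranged from 3.09 to 12.5, with means of 9.47 in the CAG-EGFP libraries (7.70 to 12.5) and 5.51 in the U6 libraries (3.09 to 7.79), and an overlap through a single U6 library. miR-5121 per miR-1291 ranged from 2.77 to 4.94, and its promoter means of 3.87 ± 1.08 and 3.41 ± 0.370 (SD, n = 4 each) differed by less than the spread of the libraries.

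**Figure D4:**
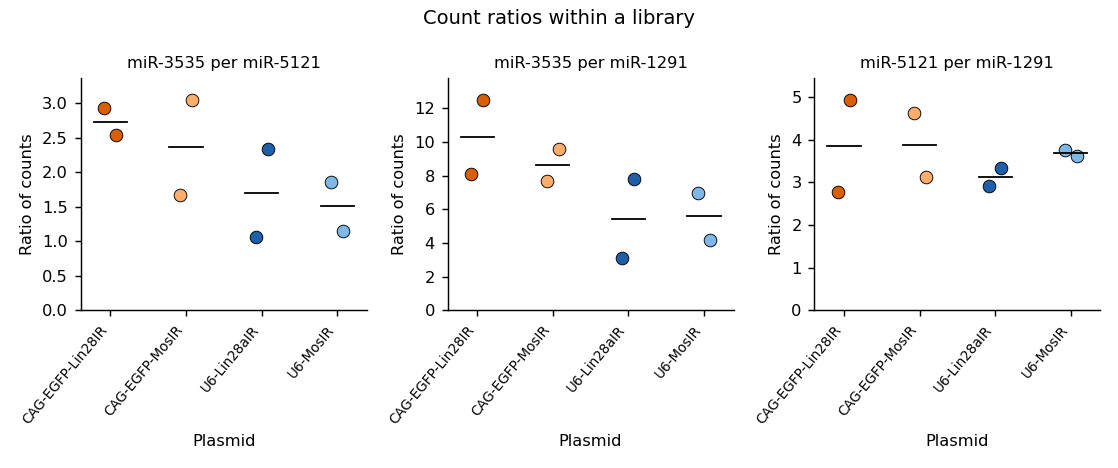
Ratio of the counts of 2 members in the same library, by plasmid; points are libraries and lines the means of the 2 libraries. miR-3535 per miR-5121 runs from 1.06 to 3.05, and miR-5121 per miR-1291 from 2.77 to 4.94.

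Whether the hairpin sequence made a difference was examined by Lin28 against Mos plasmids, a contrast that had no part in the choice of the members. No member passed the test, which does not show that the levels were alike. The log2 fold change was 0.29 (standard error 0.17, adjusted p = 0.970, edgeR) for miR-3535, 0.0614 (0.17, adjusted p = 0.984, edgeR) for miR-5121 and 0.25 (0.16, adjusted p = 0.970, edgeR) for miR-1291. Of the 10 members 8 were above 0 and 2 below, with a median of 0.0651 and a range from -0.28 for miR-664-5p to 0.22 for miR-3084-3p among the 7 low ones. Over all 360 miRNAs the median was 0.0431, and 0 passed (0%), with 10 at an unadjusted p under 0.05 by edgeR, and 0 calls and 3 unadjusted by DESeq2. The Lin28 and Mos libraries overlapped in RPM for each of the 10 members, as against 0.833% of the 360 miRNAs for which they did not.

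The interaction, which asks whether the U6 against CAG-EGFP difference was itself different between the Lin28 and the Mos plasmids, also passed the test for no member. It was -0.96 on the log2 scale (standard error 0.34, adjusted p = 0.994, edgeR) for miR-3535, -0.77 (0.35, adjusted p = 0.994, edgeR) for miR-5121 and -0.63 (0.33, adjusted p = 0.994, edgeR) for miR-1291. In RPM the U6 mean over the CAG-EGFP mean was 0.562 with Lin28 and 0.759 with Mos hairpins for miR-3535, 0.931 and 1.16 for miR-5121, and 1.07 and 1.23 for miR-1291. Across all 360 miRNAs 0 passed (0%), with 13 at an unadjusted p under 0.05 by edgeR, and 0 calls and 8 unadjusted by DESeq2. The miR-5121 interaction depended on 1 library: without CAG-EGFP-MosIR replicate 1 it was -1.24 (adjusted p = 0.00498, edgeR), and over the omissions of single libraries its adjusted p ran from 0.00498 to 1.00. A plasmid left with 1 library was assumed to vary like the others.

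The abundant members carried more mismatches than other miRNAs. Of the counts with up to 2 mismatches, the share counted without mismatch was 95.8% ± 0.173 for miR-3535, 95.3% ± 0.172 for miR-5121 and 94.8% ± 0.369 for miR-1291 (SD, n = 8 libraries each). Over all miRNA counts the share was 99.0% ± 0.0412, and each of the 3 members was below it in 8 of 8 libraries. Pooled over libraries, these were the 9th, 5th and 4th lowest shares among the 232 miRNAs with at least 500 counts, whose median was 99.3%, and 9 of the 232 were below 96%. The mapped reads outside 18–30 nt were perfect in 92.0% ± 0.309, those of 18–30 nt in 89.8% ± 1.13 and those of 21–23 nt in 96.5% ± 0.703 (SD, n = 8).

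Nearly all of these reads had a single mismatch. For miR-3535, 8531 counts were added at 1 mismatch and 520 more at 2 mismatches, to 205778 counts without mismatch. For miR-5121 the additions were 4808 and 264 to 101829, and for miR-1291 they were 1474 and 91 to 28527. The files give no base or position of a mismatch. miR-3535 and miR-1291 are 26 nt long and miR-5121 is 21 nt long. Among the 37 miRNAs of 21 nt with at least 500 counts the median share was 99.4%, and among the 5 of 25 nt or more, of which miR-3535 and miR-1291 are 2, it was 98.1%. The part of length in these shares was not tested.

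Among the low members only a pair could be compared. miR-1843a-5p and miR-1843b-5p, the 2 low members with at least 500 counts, were perfect in 99.6% of their pooled counts each. All 94 counts of miR-1843a-3p were perfect. For miR-664-5p, miR-664-3p, miR-3084-5p and miR-3084-3p the pooled shares were 98.6%, 99.0%, 98.7% and 98.1%, with 2 to 7 imperfect counts each over the 8 libraries, too few to compare them with the other miRNAs.

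**Figure D5:**
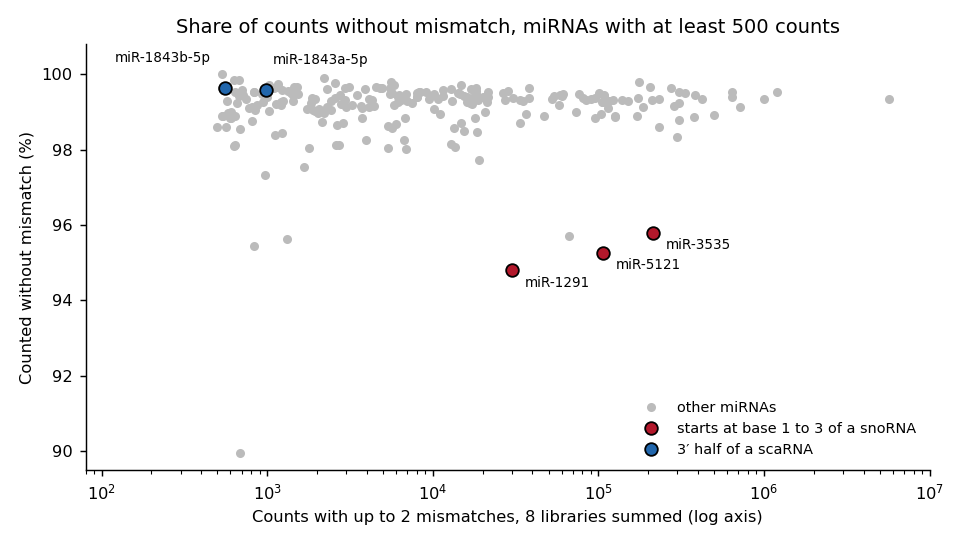
Share of the counts with up to 2 mismatches that were also counted without mismatch (%), against those counts summed over the 8 libraries (log axis), for miRNAs with at least 500 counts; miR-6239 and miR-5099 lie below the axis and are not drawn. miR-3535, miR-5121 and miR-1291 lie at 94.8% to 95.8%, below the median of 99.3%.

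The reads with mismatches were compared between promoters in the same way. Counts of miR-3535 with exactly 1 mismatch amounted to 89.8 RPM ± 17.3 with CAG-EGFP and 54.7 RPM ± 15.1 with U6 plasmids (SD, n = 4 each), a ratio of 0.609. The same ratio was 1.05 for miR-5121 and 1.16 for miR-1291, beside 1.04 and 1.15 for their perfect reads. For the few reads with exactly 2 mismatches it was 0.584 for miR-3535, 1.04 for miR-5121 and 1.41 for miR-1291, the last on 91 counts. The perfect share of miR-3535 was 95.6% to 95.8% in the CAG-EGFP libraries and 95.8% to 96.1% in the U6 libraries, without overlap. The gap was narrow, from 95.80% in the highest CAG-EGFP library to 95.83% in the lowest U6 library. A lack of overlap was seen for 3.02% of the 232 miRNAs with at least 500 counts. With U6 plasmids the mean share was also higher over all miRNA counts (99.04%, against 98.99%) and mapped reads of 18–30 nt (90.2%, against 89.3%). For miR-5121 and miR-1291 it was lower, and the groups overlapped. Counts without mismatch were known when the members were chosen, so nothing is read from the separation of miR-3535.

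The arms of the H/ACA hairpins were present in different proportions. The 5p arm made up 91.2% of the miR-1843a pair (977 counts of 5p and 94 of 3p, 95% Wilson interval 89.4% to 92.8%) and 88.7% to 96.3% in single libraries. For the miR-664 pair the 5p share was 55.1% (478 and 390 counts, 51.7% to 58.3%), but it ranged from 41.3% to 69.9% over the libraries and was above 50% in 4 of 8. For the miR-3084 pair it was 41.1% (147 and 211 counts, 36.1% to 46.2%) and above 50% in 1 of 8 libraries. Means of the Lin28 and Mos libraries were 91.6% ± 3.37 and 91.7% ± 2.77 for the miR-1843a pair, and 54.1% ± 8.13 and 55.2% ± 13.0 for the miR-664 pair. For the miR-3084 pair they were 39.4% ± 1.57 and 43.0% ± 9.99 (SD, n = 4 each), where U6-MosIR replicate 1 at 56.8% was the highest. The intervals cover counting error only, since reads without molecular identifiers are not independent molecules. The 5p arm of miR-1843b made up 91.9% (89.4% to 93.8%) of its pair, close to that of miR-1843a. Both 5p arms share a stretch of 20 bases, and reads that lie within it cannot be told apart. In Scarna3b the base after miR-1843a-5p is the same as the last base of miR-1843b-5p. The whole of miR-1843b-5p therefore also occurs in Scarna3b, and its full-length reads match both genes. The 5p shares of both pairs may rest in part on the same reads.

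Of the 14 other names inside snoRNA or scaRNA genes, all were below the 3 abundant members and 8 were under 1 RPM. The highest were miR-1839-5p at 58.2 RPM ± 14.1 and miR-3068-5p at 10.2 RPM ± 2.44 (SD, n = 8), followed by miR-3068-3p at 6.63, miR-1949 at 5.81, miR-1839-3p at 2.19 and miR-677-5p at 1.77 RPM. All of these 6 but miR-677-5p begin beyond the midpoint of the gene, and miR-1949 runs past its annotated end. Of the 14, 7 passed the filter on low counts, and with U6 against CAG-EGFP plasmids 4 of these were below 0 and 3 above, with a median log2 fold change of -0.00732. Of all 24 names, 4 begin within the first 3 bases of the gene, the 3 abundant members and miR-677-5p. The remaining 20 had a median of 1.54 RPM and at most 58.2 RPM.

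The miRNAs whose RPM varied most like that of miR-3535 over the 8 libraries were weakly alike. Among 184 miRNAs with a mean of at least 10 RPM outside the members, Pearson's r of log2(RPM + 1) was highest for miR-5126 (0.43), miR-374b-5p (0.20) and miR-7a-5p (0.12). It was -0.32 for miR-5121 and -0.43 for miR-1291. The points are libraries that share a denominator and plasmids, so these values are only a description.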

How the data were processed

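The files hold, for each library, how many reads fell on each annotated mature miRNA; these deposited counts are not normalised and come in versions that allow no, 1 or 2 mismatches. Deposited counts of mapped reads (every length, 18–30 nt and 21–23 nt) served as denominators. The authors used the NEXTflex kit, Illumina sequencing, adapter trimming with 4 further bases removed from each read end, and STAR 2.5.3a on mm10 joined with the plasmids, with every multimapping read kept. No source used here states how reads were assigned to a miRNA, so longer snoRNA fragments may or may not be included. Multimapping reads count at each locus, so a name at several loci was counted once, at its highest locus.

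The members and lists were chosen with earlier results of these data known. Places in snoRNA and scaRNA genes come from GENCODE vM21 and RefSeq on GRCm38, the same build as mm10. Of 2108 listed loci, 1734 matched a RefSeq mature miRNA by name and coordinates. RPM used counts and mapped reads without mismatch. Counts were tested with the quasi-likelihood test of edgeR 4.0.16 (R 4.3.3; TMM, filterByExpr, robust estimation). All 4 plasmids entered 1 fit, with Benjamini-Hochberg adjustment over 360 miRNAs and a threshold of 0.05. All 10 members passed the filter. The script was tested on simulated data for Lin28 against Mos with 360 miRNAs. It called 69.9% of those changed 1.5-fold, 93.2% of those changed 2-fold and 99.7% of those changed 4-fold, and 2.59% of those not changed. Over all runs these were 339, 308 and 338 changed miRNAs beside 771 not changed, so more were changed than not. The adjusted threshold is easier to pass in such data. These shares therefore do not give the power in the real contrast, where 0 miRNAs passed. Wells are the replicates, and 2 libraries per plasmid limit the precision. Alternatives were DESeq2 1.42.0, other library sizes, filters, mismatches, summed loci, estimation that is not robust, the replicate number as a block and leaving out each library. Named are the 10 members, the 3 miRNAs most like miR-3535, up to 6 other miRNAs of such genes and miR-21a-5p; miR-677-3p, miR-1843b-3p, miR-6239 and miR-5099 were named after their values were seen.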

Additional observations from a re-analysis of the deposited data

Results flagged for a closer look

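Of 52 groups of 4 libraries examined, 3 held a library far from the other 3 by Dixon's test at 0.829, and chance gives about 1 in 20 groups, that is 2.6. All 3 concern miR-1291. Its level in U6-MosIR replicate 2 was 308 RPM, against 208 to 217 RPM in the other 3 Mos libraries. Its share of counts without mismatch was 94.3% in CAG-EGFP-Lin28IR replicate 2, against at least 94.9% in the other Lin28 libraries. The share was 95.5% in CAG-EGFP-MosIR replicate 2, against 94.5% to 94.6% in the other Mos libraries. The causes were not tested.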

How the results depend on the processing

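U6 and CAG-EGFP plasmids differed past the threshold for 2 miRNAs, and for 183 with all perfectly mapped reads as library size, 71 with 18–30-nt reads, 196 with reads outside 18–30 nt and 4 without a filter on low counts; the cause was not tested. Without single libraries it was 2 to 11, with 11 without CAG-EGFP-MosIR replicate 1, 10 without CAG-EGFP-MosIR replicate 2 and 5 without U6-Lin28aIR replicate 1. For Lin28 against Mos and for the interaction the number of miRNAs was 0 to 3 without single libraries, with 3 for both without CAG-EGFP-MosIR replicate 1, and 0 under the other settings. The U6 against CAG-EGFP contrast was known when the members were chosen, so calls of members in it are not given. In that contrast, without single libraries, miR-5121 ran from -0.62 to -0.28 and miR-1291 from -0.46 to -0.16 on the log2 scale. Members past the threshold were 0 throughout for Lin28 against Mos, and 0 to 1 for the interaction. The Lin28 against Mos log2 fold change of miR-5121, 0.0614, turned to -0.0733 with all mapped reads, -0.0354 with 18–30-nt reads and -0.0776 with reads outside 18–30 nt as library size, and ran from -0.11 to 0.24 without single libraries. The log2 fold change of miR-3535 with U6 against CAG-EGFP stayed below 0 under all 19 alternatives, from -1.36 to -0.55. Since miR-3535 stood apart in this contrast when the members were chosen, that range is a description and not support. With the replicate number as a block the counts were 2, 0 and 0, and it changed no call; same-numbered libraries did not deviate together, with correlations of their deviations from -0.26 to 0.20 over the 6 pairs of plasmids. Depth limits the 7 low members, at 94 to 977 counts.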

Other observations

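miR-677-5p and miR-677-3p lie in the 72-base snoRNA gene Mir677 and were singled out after their values were seen. miR-677-5p spans bases 3 to 24 and holds UGAUGA, and miR-677-3p spans bases 47 to 72, up to the last base of the gene. Their log2 fold changes with U6 against CAG-EGFP plasmids were -0.88 (standard error 0.26) and -0.89 (0.42). Their counts were perfect in 95.9% and 93.0%. The values rest on 208 and 107 counts over the 8 libraries.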
